A study of Mus musculus and Homo sapiens with 90 samples.

Results

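Of 46150 candidate regulatory regions that could be compared in HepG2 cells and in the livers of conventional and germ-free mice, 3178 (6.89%) had reporter activity at or above the threshold in all 3 systems. They were chosen by their measured activity in a massively parallel reporter assay (MPRA), where every region is cloned in a plasmid whose transcripts can be traced to it, and RNA is set against DNA. Activity here is log2 of the mean RNA CPM (counts scaled to the library total) plus 1 over the mean DNA CPM plus 1, minus the median of the negative controls in the same table. A region entered the set at an activity of at least 1.5 in each system, which is 2.83-fold over the negative controls, and needed DNA counts that averaged 50 or more in each. Because these values chose the members, counts and medians over the members in the 3 systems, and the calls between these systems, describe the set and do not set it apart from other regions. The series lists 103435 test regions in at least 1 table when each sub-library is counted apart.

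HepG2 is a human liver cancer cell line, labelled p53-WT in every HepG2 library. The conventional livers came from C57BL/6 mice with no treatment entry, and the germ-free livers from C57BL/6 mice raised without a microbiota. Hep3B is another human liver cancer line, measured in sub-library 2 only. Its genotype entry is p53-null, although HepG2 is given as its source and cell line. HepG2 gave 14 RNA and 5 DNA libraries, each of the 2 kinds of liver 15 and 15, and Hep3B 2 RNA libraries and 1 DNA library. The labels do not say how the plasmids reached the liver or whether the replicates are different cultures or animals, so the adjusted p-values refer only to the spread among these libraries. The tables hold reporter counts only, so the identity of the cells was not checked against marker genes.

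Enhancers and promoters are stretches of DNA that raise transcription when the proteins that bind them are present. Many of the transcription factors of hepatocytes, such as the FOXA family, recognise much the same motifs in humans and mice, so a human region can be read in a mouse liver. A reporter plasmid takes the region out of its chromosome and tests the sequence alone. All 3178 members carry the prefix EH38D, which the ENCODE registry gives to human DNase-hypersensitive sites. The eligible regions also held 72 entries with the mouse prefix EM10D and 5 named Peak_. Some EM10D names recur in several sub-libraries. None of these entries met the rule, where 6.89% of all eligible regions did, and this difference was not tested. Names end in the sub-library that held the region.

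RNA libraries summed to between 1720314 and 8202279 counts in HepG2, 1172822 to 6627375 in the conventional and 2740171 to 25625463 in the germ-free liver. The lowest RNA count listed in any table was 10, so silent regions are not listed and the eligible set holds only regions with RNA in every library of its tables. Correlation of log2 RNA counts between libraries of 1 table was lowest at 0.624 in the conventional and 0.648 in the germ-free liver, against 0.771 in HepG2. In germ-free liver the negative controls spread more widely. There, 11.4% of 3184 eligible negative controls reached an activity of 1.5, against 3.20% in HepG2 and 4.21% in conventional liver, and the germ-free share was 19.9% in sub-library 5.

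Every sub-library held members. Sub-libraries 1 to 5 gave 850, 393, 613, 745 and 577 members, which were 6.73%, 9.29%, 7.83%, 7.03% and 5.31% of their eligible regions. Across all eligible regions, 19.1% reached the threshold in HepG2, 22.3% in the conventional and 28.9% in the germ-free liver. The members were 36.1% of the regions at the threshold in HepG2, 30.9% of those in the conventional and 23.8% of those in the germ-free liver. Of the 5195 regions at the threshold in HepG2 and conventional liver, 61.2% were members, and of the 4066 in HepG2 and germ-free liver, 78.2%. The rule also let through 8 of the 3184 eligible negative controls, or 0.251%. In 5 of those 8 cases it was the same control, YBR072W_183_372, once in each sub-library, with a lowest activity of 1.65 in sub-library 3 and 2.35 in sub-library 4. The control with the highest lowest value was YGR077C_561_750 in sub-library 4, at 3.53 in HepG2, 5.67 in the conventional and 4.14 in the germ-free liver. Negative control names have the form of a yeast gene with 2 positions, so a few sequences outside the test set drove the reporter in all 3 systems.

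Members covered a wide span of strength. Their activity in HepG2 ranged from 1.5 to 6.84 with a median of 2.43. In conventional liver it ranged from 1.5 to 8.53 with a median of 3.22, and in germ-free liver from 1.5 to 7.25 with a median of 2.53. The highest of the 3 values was in conventional liver for 1807 members (56.9%), in germ-free liver for 730 (23.0%) and in HepG2 for 641 (20.2%). Conventional liver gave the lowest value for only 462 members. The lowest of a member's 3 values was at least 2 for 1571 members, at least 3 for 321, at least 4 for 54 and at least 5 for 9. The gap between a member's highest and lowest system had a median of 1.43, and it was at most 0.5 for 349 members (11.0%).

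Members held a larger share of the reporter RNA than of the DNA, as the rule on RNA over DNA requires of its members. Shares also depend on how many regions a table lists, from 4606 to 18473 in conventional liver. Members held 2.76% to 5.85% of the DNA counts of the conventional liver libraries and 20.9% to 40.0% of the RNA counts. In HepG2 they held 1.42% to 3.56% of the DNA counts and 9.04% to 23.0% of the RNA counts. In germ-free liver they held 1.27% to 4.80% of the DNA counts and 3.73% to 27.0% of the RNA counts, the lowest shares being those of sub-library 2. The DNA side of the ratio was thinner for members than for eligible regions as a whole. The median DNA count of members by sub-library was 91.0 to 284 in HepG2, where that of eligible regions was 109 to 372. It was 172 to 355 in conventional liver, against 230 to 477, and 150 to 288 in germ-free liver, against 210 to 383. RNA and DNA counts both enter the rule, so these shares and counts are a description.

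Outside sub-library 2, the members differed most between replicate libraries in germ-free liver. The median over members of the SD between RNA libraries was 0.163 to 0.248 in HepG2, 0.225 to 0.748 in the conventional and 0.425 to 0.638 in the germ-free liver, by sub-library. The value of 0.748 belongs to conventional liver in sub-library 2, which has 2 RNA libraries. Over eligible regions the median SD was 0.205 to 0.423 in HepG2, 0.388 to 0.678 in the conventional and 0.372 to 0.661 in the germ-free liver. There it was larger in conventional than in germ-free liver in sub-library 2 (0.678 against 0.400) and sub-library 5 (0.495 against 0.372). Read library by library, 2736 members (86.1%) reached 1.5 in every HepG2 RNA library, 2797 (88.0%) in every conventional liver library and 2317 (72.9%) in every germ-free library. All libraries of all 3 systems reached it for 1808 members (56.9%).

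The strongest members by their lowest system were mostly from sub-library 4, which gave 7 of the first 10 and held 745 of the 3178 members. In HepG2 its members had the lowest median DNA count of the sub-libraries, 91, and these 7 had DNA counts from 51 to 127. Values per library below are given in the order of the replicate numbers, and an activity is followed by the SD of the per-library values. EH38D2617922sub4 led, giving 5.86, 6.08 and 5.89 in the HepG2 libraries, 6.82, 6.71, 6.57 and 6.66 in the conventional and 6.82, 5.77 and 5.27 in the germ-free liver. Its germ-free libraries overlapped those of both other systems, while conventional liver lay above HepG2 throughout. EH38D4613310sub4 had the highest HepG2 activity of all members, with 6.68, 7.02 and 6.87 there, 8.04, 8.38, 7.94 and 8.18 in the conventional and 6.88, 5.10 and 5.38 in the germ-free liver. In this region the conventional libraries lay above all others, and 1 germ-free library reached the HepG2 range.

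EH38D4612381sub4 was among the members with like values in both livers, with 6.84, 6.32, 6.18 and 6.22 in conventional and 6.94, 6.25 and 5.82 in germ-free liver against 5.32, 5.54 and 5.32 in HepG2. Both livers lay above HepG2 here, and they overlapped each other. EH38D4440680sub1 showed the widest split of these 10 regions between the livers. Its HepG2 libraries gave 6.21 and 6.13, its conventional libraries 8.02, 8.56, 8.14 and 8.15, and its germ-free libraries 5.53, 4.04 and 5.52. The 3 systems did not overlap in this region, and germ-free liver was the lowest. The others had their lowest activity at 5.42 ± 0.10 (SD, n = 3) in HepG2 for EH38D2582565sub4, 5.38 ± 0.70 (SD, n = 3) in germ-free liver for EH38D2512964sub4, 5.36 ± 1.16 (SD, n = 3) in germ-free liver for EH38D4735981sub4, 5.12 ± 0.21 (SD, n = 3) in HepG2 for EH38D2685095sub4, 5.11 ± 0.08 (SD, n = 3) in HepG2 for EH38D4121854sub3 and 4.98 ± 0.64 (SD, n = 3) in germ-free liver for EH38D5938606sub3.

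**Figure D1:**
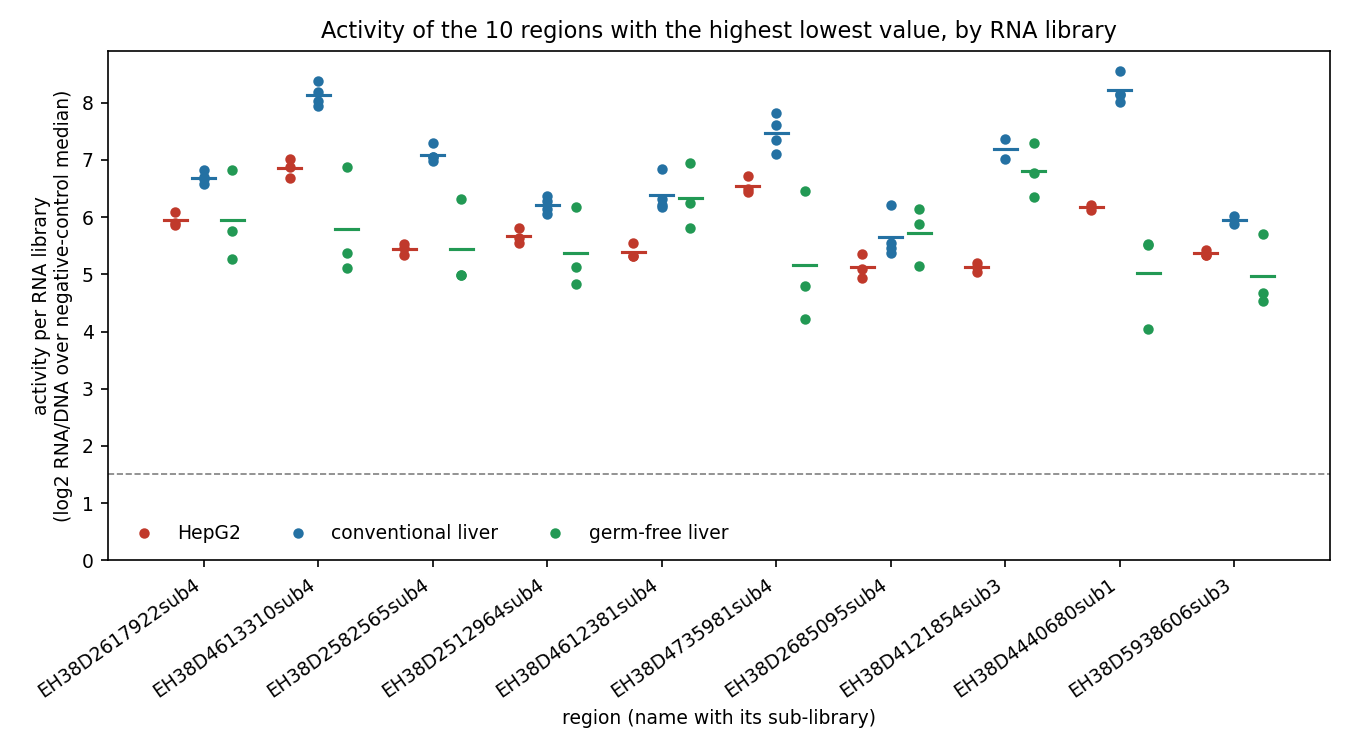
Activity (log2 RNA over DNA relative to the median negative control, y axis) of the 10 members with the highest lowest value, 1 point per RNA library and a bar at the mean of the libraries, for HepG2 (red), conventional liver (blue) and germ-free liver (green); the dashed line is the threshold of 1.5. Germ-free libraries spread most, from 4.23 to 6.45 in EH38D4735981sub4.

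At the other end, the rule's edge is finer than the replicate spread. The 5 members just inside the threshold all had a lowest value that rounds to 1.5, and so had the 5 regions just outside it. EH38D4821294sub4, just inside, had 3.03, 3.48 and 3.13 in HepG2, 1.73, 1.72, 1.13 and 1.55 in the conventional and 2.91, 2.55 and 2.21 in the germ-free liver. Its conventional libraries fell on both sides of the threshold. EH38D5025596sub5, just outside, had 1.44, 1.64 and 1.56 in HepG2, 3.72, 2.54 and 3.84 in the conventional and 5.27, 4.73 and 5.72 in the germ-free liver. It missed the rule by its HepG2 value alone, and its germ-free libraries were above the conventional ones.

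The first comparison sets germ-free against conventional liver. The RNA libraries of these livers carry different series of library names and differ in depth, with totals up to 25625463 in germ-free and 6627375 in conventional liver. The absence of a microbiota cannot be told apart from these differences. More members were called lower than higher in germ-free liver. edgeR's quasi-likelihood test of the difference between the RNA/DNA ratios, with Benjamini-Hochberg adjustment over all regions tested, called 1347 of 3178 members (42.4%) lower in germ-free than in conventional liver and 129 (4.06%) higher. Of all 52754 test regions tested, 20.6% were called lower and 19.1% higher. The median log2 difference was -0.84 over the members and 0.04 over all test regions. On the activity scale, 2229 members (70.1%) had the lower value in germ-free liver, as had 42.9% of eligible regions. The members were chosen with values from these same liver libraries, so their counts describe the set and do not show that it stands apart.

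The counts depended on the scaling. Library size alone moved the median of all test regions by 0.57 and scaling on the negative controls by 0.33, both upward in germ-free liver. With library size alone 917 members (28.9%) were called lower and 359 (11.3%) higher, against 13.4% and 33.7% of all test regions tested. With the negative controls the counts were 1038 (32.7%) and 243 (7.65%), against 15.4% and 26.5% of all test regions tested. In sub-library 2 the share of members called lower, 19.1%, was near that of all regions tested there, 18.1%. In sub-libraries 1, 3, 4 and 5 it was 56.9%, 24.0%, 48.1% and 49.0%, against 21.9%, 10.2%, 20.0% and 27.3%. The median difference of the members was below that of all regions tested in each of the 5 sub-libraries, the smallest at -0.54 (sub-library 3) and the largest at -1.11 (sub-library 5).

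**Figure D2:**
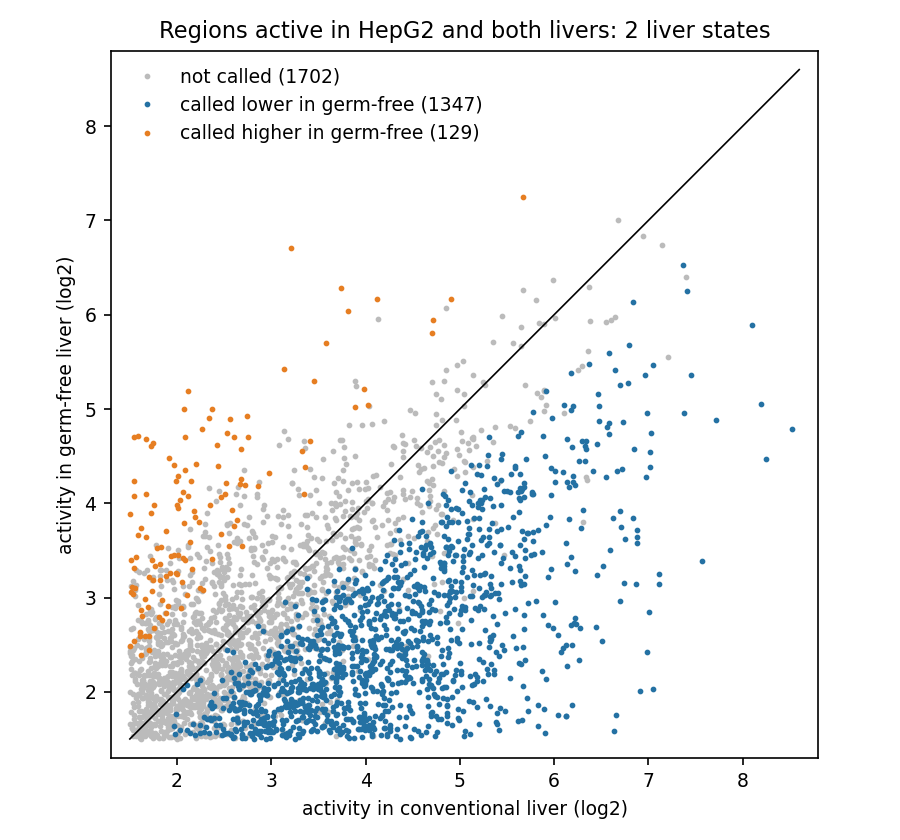
Activity of the 3178 members in conventional liver (x axis, log2) against germ-free liver (y axis, log2), 1 point per region, coloured by edgeR's call at an adjusted p under 0.05; the line marks equal activity. The 1347 members called lower in germ-free liver lie below the line, and the 129 called higher lie above it.

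HepG2 values were not part of the contrast between the livers, so the same difference was also read over eligible regions grouped by HepG2 activity alone. It fell step by step with HepG2 activity. The median log2 difference between germ-free and conventional liver was 0.33 for the 15739 regions with a HepG2 activity under 0, and 0.15 for the 8156 regions from 0 to 0.5. It was -0.07 for the 13463 regions from 0.5 to 1.5, -0.53 for 5913 regions from 1.5 to 2.5, -1.21 for 1978 regions from 2.5 to 3.5, and -1.72 for the 901 regions at 3.5 or more. The share called lower rose from 14.8% in the first of these groups to 63.6% in the last, and the share called higher fell from 25.7% to 1.11%. Over all 8792 regions with a HepG2 activity of at least 1.5, whatever their liver values, 40.7% were called lower and 6.87% higher. These regions include all the members, of which 42.4% and 4.06% were called, so the shares are not independent. The order of the groups was the same in each of the 5 sub-libraries. In the group at 3.5 or more the median was -2.26, -1.34, -0.68, -1.76 and -2.17 in sub-libraries 1 to 5. The part of replicate spread in germ-free liver in this pattern was not tested.

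**Figure D3:**
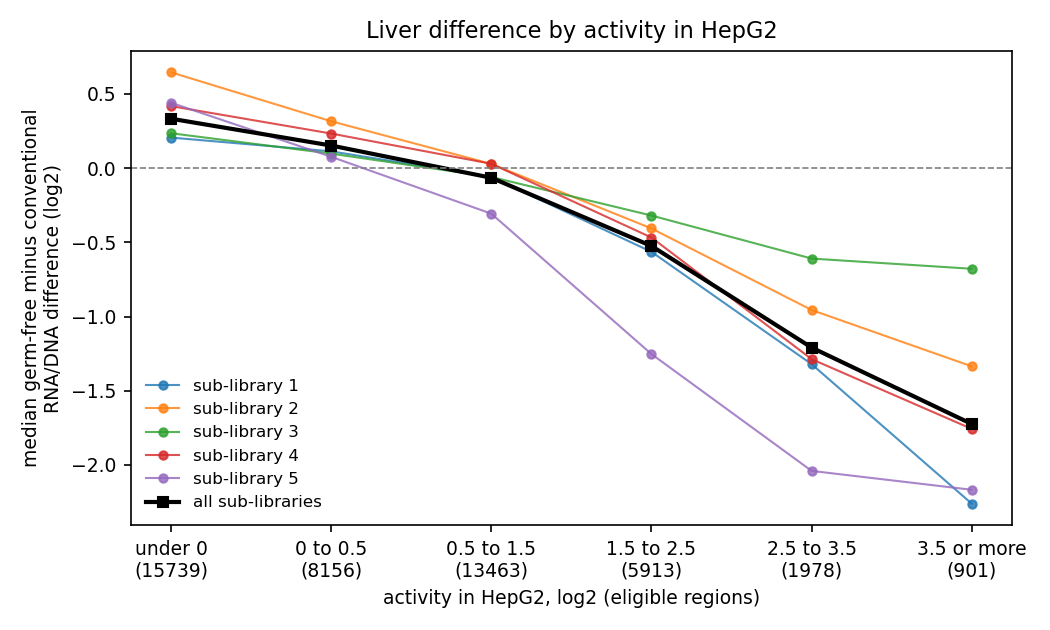
Median log2 difference in RNA/DNA between germ-free and conventional liver (y axis) for eligible regions grouped by HepG2 activity (x axis, number of regions in brackets), for each sub-library (colours) and for all (black). The median falls from 0.33 in the group under 0 to -1.72 in the group at 3.5 or more.

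The 3 members with the largest called rises in germ-free liver, picked by these same values, differed from conventional liver by more than the replicate spread. EH38D4819934sub4 gave 5.07, 5.79 and 4.85 in germ-free liver against 2.04, 2.16, 2.23 and 2.19 in conventional liver. The groups did not overlap, and edgeR's difference was 2.98 ± 0.28 (log2, SE, adjusted p = 7.63e-07). EH38D5042235sub5 gave 7.20, 6.16 and 6.90 against 3.22, 3.33 and 3.39, again with no overlap, and a difference of 2.83 ± 0.39 (edgeR, SE, adjusted p = 6.86e-05). EH38D2470154sub4, the last of the 3 largest rises, differed by 2.61 ± 0.27 (edgeR, SE, adjusted p = 2.06e-06). Of these regions, HepG2 activity was 2.81, 2.77 and 2.23, nearer to conventional than to germ-free liver in all 3.

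Of the members called lower, EH38D2807220sub4 had the smallest germ-free spread among the 3 largest changes, with 2.32, 0.88 and 1.44 in germ-free liver against 6.36, 7.19, 6.65 and 6.39 in conventional liver. The groups lay far apart, with an edgeR difference of -5.24 ± 0.42 (log2, SE, adjusted p = 1.79e-07), and HepG2, at 5.24, was nearer to conventional liver. EH38D5109033sub5 gave 3.45, 0.32 and 0.44 against 6.75, 6.93 and 7.33, a difference of -5.56 ± 0.91 (edgeR, SE, adjusted p = 0.0003). EH38D5497157sub2 gave 3.34, -1.92 and 0.71 against 6.92 and 7.39, a difference of -5.33 ± 1.53 (edgeR, SE, adjusted p = 0.0194). In all 3 of these regions 1 germ-free library lay above the threshold of the rule and the other two below it. The call for EH38D5497157sub2 was lost without germ-free replicate 3 (adjusted p = 0.0728) and without either conventional replicate (adjusted p = 0.111 and 0.112), by edgeR.

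Set against HepG2, more members were called higher than lower in conventional liver. The same edgeR test called 1274 members (40.1%) higher and 137 (4.31%) lower in conventional liver than in HepG2, where 13.0% and 6.87% of all test regions tested were called. The median difference was 0.78 over the members and 0.02 over all test regions. The rule used the libraries of both systems, so these values describe the set. Library size alone moved the median of all test regions by -0.69. It then called 821 members (25.8%) higher and 410 (12.9%) lower, against 7.12% and 21.5% of all test regions tested. Without conventional liver replicate 2 the count called lower was 223 (7.02%), against 9.56% of all test regions tested.

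EH38D2916455sub5 held the highest conventional liver activity of all members, with 8.42, 8.53 and 8.92, and gave 1.82, 1.13 and 2.13 in HepG2. The difference was 6.67 ± 0.32 (edgeR, log2, SE, adjusted p = 9.45e-09), and its germ-free activity of 4.79 lay between the other two. EH38D4672724sub4 gave 7.67, 6.94, 6.71 and 6.32 in the conventional livers, 7.27, 7.03 and 6.41 in the germ-free livers and 1.47, 1.61 and 1.91 in HepG2. Its 2 liver groups overlapped, and both lay above HepG2, by 5.52 ± 0.44 (edgeR, SE, adjusted p = 1.47e-07) in conventional and 5.12 ± 0.38 (edgeR, SE, adjusted p = 1.98e-05) in germ-free liver. EH38D2578481sub4 was the other of the 3 largest, with a difference of 5.31 ± 0.47 (edgeR, SE, adjusted p = 4.18e-07).

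In the other direction, EH38D5778655sub2 gave 6.14, 5.78 and 5.74 in HepG2, 0.67 and 2.70 in the conventional and 1.42, 1.95 and 1.57 in the germ-free liver. HepG2 stood above both livers, by edgeR differences of -3.79 ± 0.74 (SE, adjusted p = 0.0136) for conventional and -4.35 ± 0.28 (SE, adjusted p = 5.2e-06) for germ-free liver. EH38D4840071sub4 gave 5.28, 5.54 and 5.40 in HepG2 and 1.33, 1.31, 1.84 and 2.28 in conventional liver, with no overlap. EH38D6051922sub3 gave 5.16, 5.13 and 5.07 in HepG2 and 2.31 and 2.23 in conventional liver, also with no overlap. Their differences were -3.55 ± 0.44 (edgeR, SE, adjusted p = 1.63e-05) and -2.65 ± 0.33 (edgeR, SE, adjusted p = 0.000405).

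Between germ-free liver and HepG2 members were called in both directions. edgeR called 324 members (10.2%) higher and 403 (12.7%) lower in germ-free liver, against 16.4% and 13.4% of all test regions tested. The median difference was -0.06 over the members and 0.05 over all test regions, and here too the rule used both systems. The counts moved with the scaling and with 1 library. With scaling on the negative controls, which moved the median of all test regions by 0.30, 486 members (15.3%) were called higher and 248 (7.8%) lower. The shares of all test regions tested were then 21.8% and 9.52%. Without germ-free replicate 1, 332 (10.4%) were called higher and 722 (22.7%) lower, against 16.6% and 16.4% of all test regions tested.

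Regions of sub-library 3 led the members that were higher in germ-free liver than in HepG2, after EH38D4672724sub4. EH38D5880441sub3 gave 7.20, 7.19 and 6.88 against 2.07, 2.62 and 2.28 in HepG2, and EH38D6003317sub3 gave 6.36, 6.28 and 6.12 against 1.63, 1.85 and 1.65. Neither overlapped, and the differences were 4.65 ± 0.31 (edgeR, SE, adjusted p = 8.31e-06) and 4.45 ± 0.35 (edgeR, SE, adjusted p = 1.40e-05). Of those lower, EH38D4461278sub1 gave 2.29, 0.58 and 2.21 in germ-free liver against 6.37 and 6.30 in HepG2, with 6.65 in conventional liver. EH38D3047910sub5 gave 2.75, 2.29 and 2.59 in germ-free liver against 5.73, 5.86 and 5.94 in HepG2, with 6.19 in conventional liver. In both regions HepG2 and conventional liver lay close and germ-free liver was the low one, with differences from HepG2 of -4.55 ± 0.73 (edgeR, SE, adjusted p = 0.00136) and -4.27 ± 0.47 (edgeR, SE, adjusted p = 5.86e-05).

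Hep3B values were not used to choose the members, and they address whether activity extends to another liver cell line. Of the 393 members of sub-library 2, 389 were listed in Hep3B. Their Hep3B activity had a median of 2.65, with quartiles at 1.58 and 3.73 and a range from -1.85 to 7.21, and 305 (78.4%) reached 1.5. Of the 4202 eligible regions of that sub-library listed in Hep3B, 26.5% did. By edgeR's test of RNA against DNA, 345 members (88.7%) were called higher and 4 (1.03%) lower, against 23.9% and 13.3% of all test regions tested. Among the 4202 eligible regions, which like the members had DNA counts of 50 or more in the 3 other systems, 1762 (41.9%) were called higher. With scaling on the negative controls 262 members (67.4%) were called higher, against 8.39% of all test regions tested.

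Of the regions that reached the threshold in HepG2 but in neither liver, 202 of 395 (51.1%) reached it in Hep3B, with a median of 1.54. Those in HepG2 and conventional liver reached it in 56.2% of cases and those in HepG2 and germ-free liver in 61.3%. Regions at the threshold in both livers but not in HepG2 had a Hep3B median of 1.10, and 30.6% reached it. HepG2 activity differs between these groups, with a median of 2.64 for members and 2.03 for the HepG2-only regions. Within a HepG2 activity of 1.5 to 2, 58.3% of 84 members and 43.8% of 194 HepG2-only regions reached the threshold in Hep3B. From 2 to 2.5 these shares were 78.7% of 94 and 52.2% of 113, and from 2.5 to 3 they were 79.7% of 69 and 58.5% of 41. At 3 or more they were 89.4% of 142 and 72.3% of 47. The members' share was the higher one in all 4 bands, and this difference was not tested.

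Depth in Hep3B limits these values, since its only DNA library gave members a median DNA count of 35 and HepG2-only regions 53. Among members with a Hep3B DNA count of at least 50, 85 of 123 (69.1%) reached the threshold, against 43.5% of 209 HepG2-only regions and 18.4% of 2069 eligible regions. With a DNA count under 50, 82.7% of 266 members reached it. The share was thus higher at low DNA counts, and the order of the 3 sets was the same on both sides of 50.

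**Figure D4:**
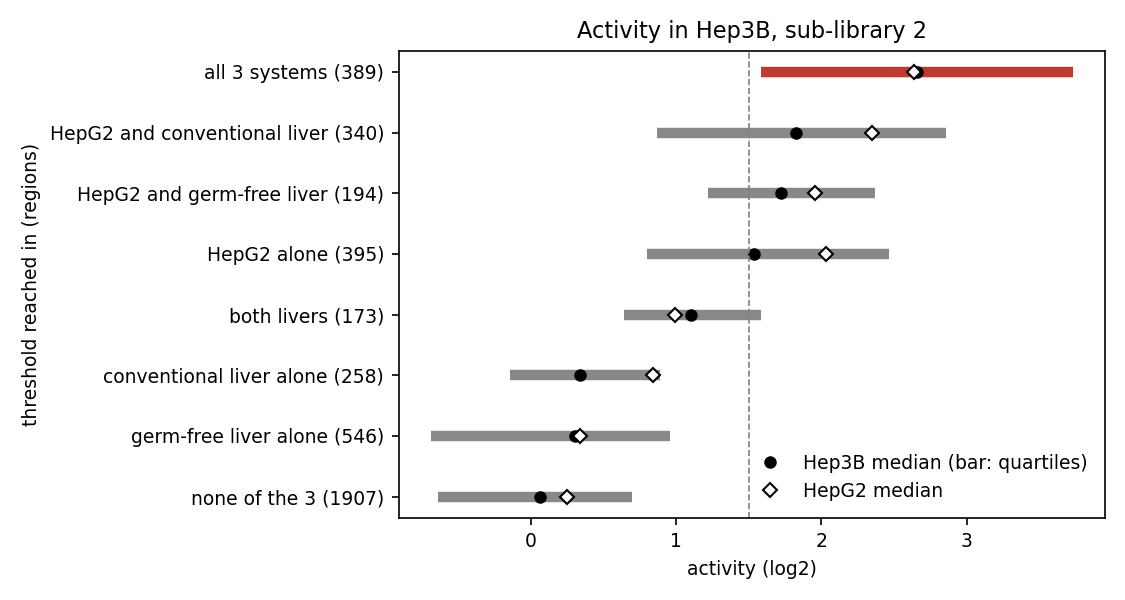
Activity in Hep3B (x axis, log2) of eligible regions of sub-library 2, grouped by the systems in which they reached the threshold (number listed in Hep3B in brackets); the dot is the Hep3B median, the bar spans its quartiles and the open diamond is the HepG2 median. The members (red) have the highest Hep3B median, 2.65, and also the highest HepG2 median, 2.64.

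Compared directly with HepG2, 71 members (18.3%) were called higher in Hep3B and 71 (18.3%) lower by edgeR, where 5.51% and 5.94% of all test regions tested were called. Of the eligible regions of sub-library 2, 8.31% were called higher and 14.7% lower, and of the HepG2-only regions 10.6% and 30.1%, so the members' share called lower was near that of eligible regions. HepG2 values are part of this contrast and of the rule. Library size alone, which moved the median of all test regions by 0.27, gave 106 higher and 51 lower, and scaling on the negative controls gave 37 and 39. Without HepG2 replicate 2 the counts were 53 and 43. The 5 highest members in Hep3B rested on few DNA counts, from 17 to 41. EH38D5503705sub2 was the highest, at 6.99 and 7.51 against 4.63 to 5.09 in HepG2. EH38D5724038sub2 gave 6.72 and 7.29 against 3.20, 3.13 and 3.03 in HepG2, a difference of 3.98 ± 0.21 (edgeR, SE, adjusted p = 4.3e-05). Both lay above the HepG2 libraries without overlap. EH38D5808738sub2, EH38D3800862sub2 and EH38D5612178sub2 followed, with Hep3B activities of 6.88, 6.68 and 6.11. EH38D3594311sub2 and EH38D3570272sub2, with DNA counts of 10 and 13 in Hep3B, differed from HepG2 by 3.33 ± 0.28 (edgeR, SE, adjusted p = 0.000281) and 3.30 ± 0.30 (edgeR, SE, adjusted p = 0.000467).

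Of the 5 lowest members in Hep3B, 4 had DNA counts there from 111 to 320, and EH38D3698047sub2 had 33. EH38D3706539sub2 gave -1.16 and -0.66 in Hep3B against 3.81, 3.63 and 3.61 in HepG2, and its livers were at 3.76 and 4.35. Hep3B was the low one of the 4 systems here, with a difference from HepG2 of -4.61 ± 0.16 (edgeR, SE, adjusted p = 1.04e-05). The rule set a floor in the other 3 systems and these 5 regions were picked by low Hep3B values, so this order follows from the choice. EH38D5674158sub2, with a DNA count of 320, was the lowest member in Hep3B, at -1.85 and -1.82 against an activity of 2.21 in HepG2, 2.60 in conventional and 4.70 in germ-free liver. EH38D3705952sub2, with a DNA count of 39, gave 0.64 and 1.21 in Hep3B against 6.77, 6.37 and 6.38 in HepG2, which was the largest fall, at -5.57 ± 0.23 (edgeR, SE, adjusted p = 1.53e-05). EH38D5778655sub2, which was far higher in HepG2 than in either liver, was also low in Hep3B, at 0.54 and 1.05, and differed from HepG2 by -5.08 ± 0.17 (edgeR, SE, adjusted p = 1.04e-05). EH38D3698047sub2, EH38D3896656sub2 and EH38D3759515sub2 completed the 5 lowest, at -1.17, -0.70 and -0.44.

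A few names were present in more than 1 sub-library. EH38D5455247 was a member in both sub-libraries that held it, with 2.58 and 2.81 in HepG2, 3.92 and 3.72 in the conventional livers and 1.61 and 1.97 in the germ-free ones in sub-libraries 1 and 2. Germ-free liver was the lowest and conventional liver the highest in both. The rule chose both copies by these values, so that both reached the threshold is no repeat test. EH38D3158852 and EH38D4580800 were members in sub-library 5 and were also listed in the other 4, where neither was a member. All 8 of these other copies reached 1.5 in HepG2, 3 of the 6 listed in conventional liver did, and none of the 7 listed in germ-free liver did.

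In germ-free liver EH38D3158852 had libraries at 3.79, 1.95 and 3.62 in sub-library 5. Its copies in sub-libraries 1 to 4 had activities of 0.14 ± 1.29, 1.10 ± 0.35, 0.97 ± 1.82 and 0.45 ± 0.69 (SD, n = 3 each) there. In HepG2 the same copies held 3.59, 3.07, 2.79 and 3.24, near the 3.36 of sub-library 5. EH38D4580800 gave 1.89, 2.11 and 2.23 in germ-free liver in sub-library 5, above every germ-free library of its copies, whose activities were 0.81 ± 0.29 in sub-library 1, 1.12 ± 0.06 in sub-library 2 and 0.53 ± 0.14 in sub-library 4 (SD, n = 3 each). Both names met the rule in the sub-library whose germ-free negative controls spread most, and the part of that spread was not tested. The germ-free DNA libraries of sub-library 5 also carry another series of library names than those of sub-libraries 1 to 4. The sub-library and the library series cannot be told apart. In sub-library 5, 45.2% of eligible regions reached the threshold in germ-free liver, against 19.3% to 31.1% in the other 4. Without sub-library 5, 2601 members remained, of which edgeR called 1064 (40.9%) lower and 90 (3.46%) higher in germ-free than in conventional liver. Of all test regions tested in the other 4, 18.5% were called lower and 16.2% higher.

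**Figure D5:**
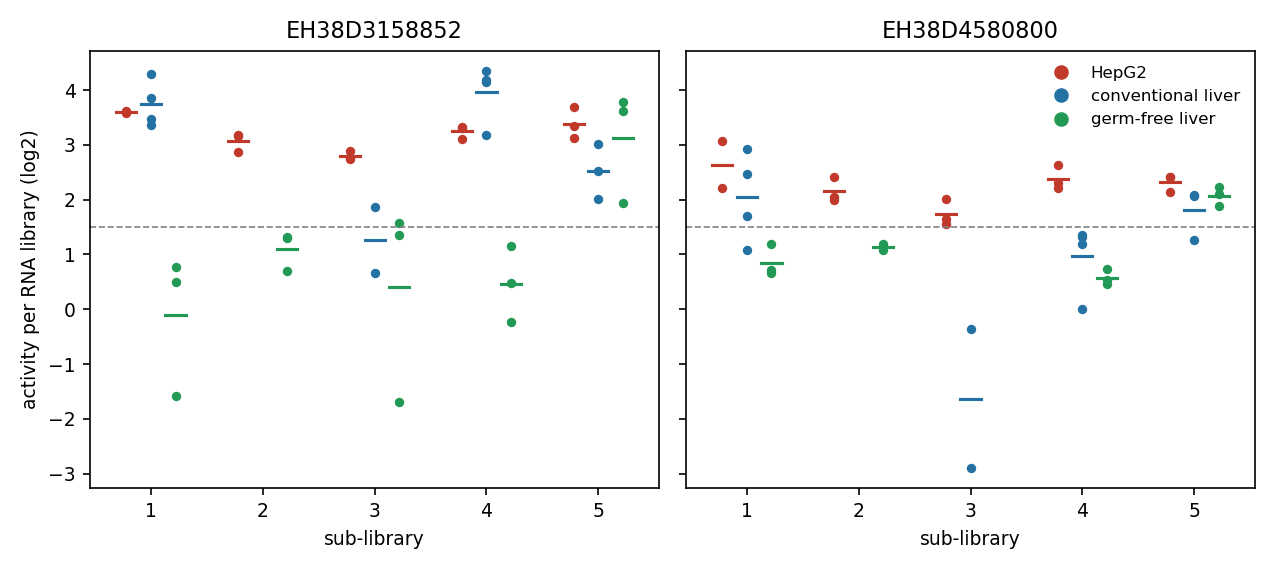
Activity (log2, y axis) of the 2 names that were members in sub-library 5 and listed in all 5 sub-libraries (x axis), 1 point per RNA library and a bar at the mean of the libraries, by system; a system with no point was not listed. In germ-free liver (green) the activity over libraries lies above 1.5 in sub-library 5 alone, while HepG2 (red) stays above it throughout.

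Accession numbers that follow each other were used to look for shared activity among regions with adjacent names. Of the members, 454 had an eligible region with a number 1 above or below, and these neighbours numbered 487. Of them, 22.2% reached the threshold in HepG2, 21.1% in the conventional livers, 30.6% in the germ-free livers and 8.21% in all 3. The values for all eligible regions were 19.1%, 22.3%, 28.9% and 6.89%, so neighbours of members were near the background. Of the members, 20 pairs had consecutive numbers. In 1 pair, EH38D4504113sub3 and EH38D4504114sub3, HepG2 activity was 4.75 and 4.54, that in the conventional livers 1.98 and 2.21 and that in the germ-free livers 1.52 and 2.63, so both were strongest in HepG2. In another, EH38D4819921sub4 and EH38D4819922sub4, HepG2 activity was 5.04 and 2.13. These pairs were chosen after their values were seen.

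Within the comparisons the rule used, edgeR's test of RNA against DNA called 2934 members (92.3%) higher in HepG2, 3046 (95.8%) in the conventional and 2996 (94.3%) in the germ-free liver, where 18.6%, 26.3% and 29.5% of all test regions tested were called. These counts follow from the rule and are given as a description.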

How the data were processed

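The deposited MPRA tables hold raw whole-number counts for each region, made by the authors, and BWA and hg38 are named in the submitters' processing notes. Whether counts were collapsed by the molecular identifier named in the protocols is not stated, and PCR copies of 1 molecule can be counted more than once. The 82 MPRA libraries of 90 samples were used, and the RNA-seq libraries were not. In germ-free liver sub-library 3 the header's replicate numbers differ from the sample titles, so columns were matched by library name.

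Activity was computed from CPM with a pseudocount of 1 as defined above. Per-library values set each RNA library against the mean DNA CPM. Each sub-library was fitted with edgeR 4.0.16 (R 4.3.3; TMM, robust quasi-likelihood) keeping regions whose DNA counts averaged 10 or more. Differences between systems were tested as an interaction term (RNA against DNA, by system), and Benjamini-Hochberg adjustment ran over all sub-libraries, with calls at 0.05. The SE is the absolute log2 difference over the square root of F. The fit was tested on simulated data. With a single DNA library in each HepG2 and Hep3B table, only RNA libraries give their spread. Same-numbered RNA and DNA libraries shared little deviation (r from -0.046 to 0.035 over 30 comparisons), and the own number matched best in 12. In conventional liver sub-libraries 2 and 3, with 2 libraries each, both values were equal. This cannot show whether RNA and DNA came from 1 sample, and numbers were not treated as pairs. Summaries and plots used pandas 2.3.3, numpy 2.4.6 and matplotlib 3.10.9 under Python 3.11.15, and DESeq2 1.42.0 was an alternative.

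Named regions are the 10 with the highest lowest value, the 5 on either side of the threshold, the 3 largest called differences each way per comparison, the 5 highest and lowest in Hep3B, and members held in several sub-libraries. The members and lists were chosen with earlier results of these data known.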

Additional observations from a re-analysis of the deposited data

Results flagged for a closer look

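The following members had an effect of RNA over DNA that differed between systems by edgeR's interaction test, with values as log2 differences. Between germ-free and conventional liver they were EH38D4819934sub4 (2.98), EH38D5042235sub5 (2.83), EH38D2470154sub4 (2.61), EH38D5109033sub5 (-5.56), EH38D5497157sub2 (-5.33) and EH38D2807220sub4 (-5.24). Between conventional liver and HepG2 they were EH38D2916455sub5 (6.67), EH38D4672724sub4 (5.52), EH38D2578481sub4 (5.31), EH38D5778655sub2 (-3.79), EH38D4840071sub4 (-3.55) and EH38D6051922sub3 (-2.65).

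Between germ-free liver and HepG2 they were EH38D4672724sub4 (5.12), EH38D5880441sub3 (4.65), EH38D6003317sub3 (4.45), EH38D4461278sub1 (-4.55), EH38D5778655sub2 (-4.35) and EH38D3047910sub5 (-4.27). Between Hep3B and HepG2 they were EH38D5724038sub2 (3.98), EH38D3594311sub2 (3.33), EH38D3570272sub2 (3.30), EH38D3705952sub2 (-5.57), EH38D5778655sub2 (-5.08) and EH38D3706539sub2 (-4.61). Over the 20 groups of 4 libraries among the named regions, no library stood apart from the other 3 by Dixon's test. Only conventional liver in sub-libraries 1 and 4 has 4 RNA libraries. Libraries of germ-free liver, HepG2 and Hep3B were therefore not tested in this way.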

How the results depend on the processing

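The set of 3178 regions held 1773 when centred on the median of all test regions and 1808 when every RNA library had to reach the threshold, all of them among the 3178. Leaving out 1 replicate gave 2931 to 3336. Members called active in Hep3B numbered 262 with scaling on the negative controls. They numbered 108 among regions with a DNA count of at least 50, where 123 were tested. Leaving out a Hep3B RNA library left no spread for this test. Members called lower in Hep3B than HepG2 numbered 39 with scaling on the negative controls, 31 with a DNA count of at least 50 and 43 to 77 without 1 replicate. Members called higher in germ-free than conventional liver numbered 359 with library size alone and 243 on the negative controls, and without 1 replicate 100 to 124, with 1115 to 1557 called lower. Against HepG2, conventional liver gave 821 higher and 410 lower with library size alone, and without 1 replicate 1165 to 1338 higher and 101 to 223 lower. Germ-free liver gave 248 lower on the negative controls, and without 1 replicate 250 to 345 higher and 300 to 722 lower. With the replicate block, 94 members were called higher and 1360 lower in germ-free than conventional liver, 1239 and 144 in conventional liver than HepG2, 311 and 462 in germ-free liver than HepG2, and 42 and 37 in Hep3B than HepG2, where the numbers pair no samples. The cause of these shifts was not tested. Of 289 refits of named differences with an adjusted p, 286 kept their call and none reversed. Those lost belong to EH38D5497157sub2. The choice to leave out sub-library 5 was made after seeing the data.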
